A study of Mus musculus with 8 samples.

Results

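Complex I (NADH:ubiquinone oxidoreductase) is the entry point of electrons from NADH into the mitochondrial respiratory chain. Its peripheral arm, which reaches into the matrix, carries the flavin and the iron-sulphur clusters, and its membrane arm pumps protons. Around the conserved core sit accessory subunits needed for assembly and stability, and in pancreatic beta cells the ATP made downstream of the chain couples glucose to insulin release. The transcripts described here are those of the nuclear genes for these subunits in islets of obese and weight-cycled mice. They were chosen by name, as the rows whose mouse symbol is Nduf followed by a, b, c, s, v or ab and a number. The choice gave 37 of 35596 genes, on 15 chromosomes. The naming rule used no measured value, but the part was chosen with earlier results of these data known. Ndufb1 was not matched by symbol and was not analysed here. Ndufa4 keeps its name as a complex I subunit but is now assigned to complex IV (cytochrome c oxidase), and it is described separately.

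All libraries came from islets of male C57BL/6J mice, which had been released by collagenase P and hand-picked before poly-A selection of their RNA. Mice of the obese group (4 libraries) ate a diet with 10% fat during the first 9 weeks and with 60% fat during the next 18 weeks. Mice of the weight-cycled group (4 libraries) ate the 60% diet during 9 weeks, switched to the 10% diet during another 9 weeks, and returned to the 60% diet during the last 9 weeks. Both groups thus ended on the 60% fat diet, and no group on the low-fat diet throughout was analysed here. Whether each library is its own animal is not in the labels, so the tests set a difference against the scatter of these libraries alone, part of which may be technical. Values are in TPM, the length-normalised transcript abundance that Salmon estimates, so levels of different genes can be set side by side. Depth is unknown from TPM. Insulin transcripts took 75.4% to 78.8% of TPM in every library. Markers of 8 islet and pancreatic cell types were summed. The alpha-cell sum ran from 4527 to 12271 TPM over the obese libraries and from 3015 to 8467 over the weight-cycled ones. That of delta cells ran from 2876 to 4581 and from 2362 to 3860 TPM, in the same order. Duct markers summed to 34.7 to 44.0 and 31.6 to 50.0 TPM, and stromal markers to 1.90 to 2.74 and 1.24 to 2.71 TPM. The beta-cell sum ran from 789480 to 803330 TPM over the obese libraries and from 784840 to 812500 over the weight-cycled ones, and that of acinar cells from 1973 to 3707 and from 2353 to 6032, highest in weight-cycled replicate 1. Ins1 and Ins2 make up most of the beta-cell sum. Of the 7 beta-cell markers, 4 were lower on TPM by limma, beside 23.9% of all genes tested. These were Slc2a2 (-1.10), Mafa (-1.10), Nkx6-1 (-0.64) and Pdx1 (-0.61). The other 3, Iapp (0.31), Ins1 (0.02) and Ins2 (-0.0008), were not called. After median-of-ratios scaling Slc2a2 alone was lower, beside 0.566% of all genes tested. Endothelial markers summed to 33.4 to 58.6 and 19.7 to 42.7 TPM, and those of macrophages to 41.5 to 47.8 and 33.8 to 42.3 TPM. The part of these cells in the results below was not tested. In bulk islets, fewer cells of a type and less RNA per cell cannot be told apart.

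The shortest subunit carries the highest transcript level and the only rise, so its coding sequence is shown. Ndufa1, at the joint between the arms of the complex, has 70 codons and is encoded on chromosome X (37187588 to 37191163, minus strand, mm10). The sequence below, from the GENCODE M21 gene model on GRCm38, runs 5′ to 3′ over 213 bases from the start codon to the stop codon, with nothing in capitals.
Ndufa1: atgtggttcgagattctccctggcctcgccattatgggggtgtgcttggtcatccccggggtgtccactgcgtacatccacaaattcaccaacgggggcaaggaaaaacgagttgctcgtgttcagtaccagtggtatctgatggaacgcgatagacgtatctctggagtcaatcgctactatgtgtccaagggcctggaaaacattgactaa

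A second pair is shown because its sequence bears on how its level was estimated. Ndufb4, an accessory subunit of the distal membrane arm, lies on chromosome 16 (37647170 to 37654453, minus strand). Its processed pseudogene Ndufb4c lies on chromosome 15 (73809507 to 73809896, minus strand) and is identical to it over all 390 bases of the coding sequence. Bases that differ would be in capitals, and the first 120 bases of the 2 run as follows.
Ndufb4: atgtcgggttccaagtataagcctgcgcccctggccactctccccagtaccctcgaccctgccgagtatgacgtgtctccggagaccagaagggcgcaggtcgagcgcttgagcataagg
Ndufb4c: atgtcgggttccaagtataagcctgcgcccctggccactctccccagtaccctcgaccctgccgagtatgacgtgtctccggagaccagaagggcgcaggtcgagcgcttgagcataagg

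All 37 transcripts were detected in every library, and most sat within a narrow band. Mean TPM over the 8 libraries ran from 6.79 for Ndufs1 to 316 for Ndufa1, a ratio of 46.6. The median was 57.5 TPM, and 30 of the 37 lay between 20 and 120 TPM. The other subunits above that band were Ndufb8 at 201, Ndufa7 at 149 and Ndufa4 at 134 TPM. Below it, besides Ndufs1, were Ndufa10 at 7.66 and Ndufb4 at 15.9 TPM. The low place of Ndufb4 rests on how reads were divided with its copy Ndufb4c, which had a mean of 110 TPM. Ndufs1, the lowest of all, is a core subunit that carries several iron-sulphur clusters. The library values of the groups overlapped for 35 of the 37 genes.

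**Figure D1:**
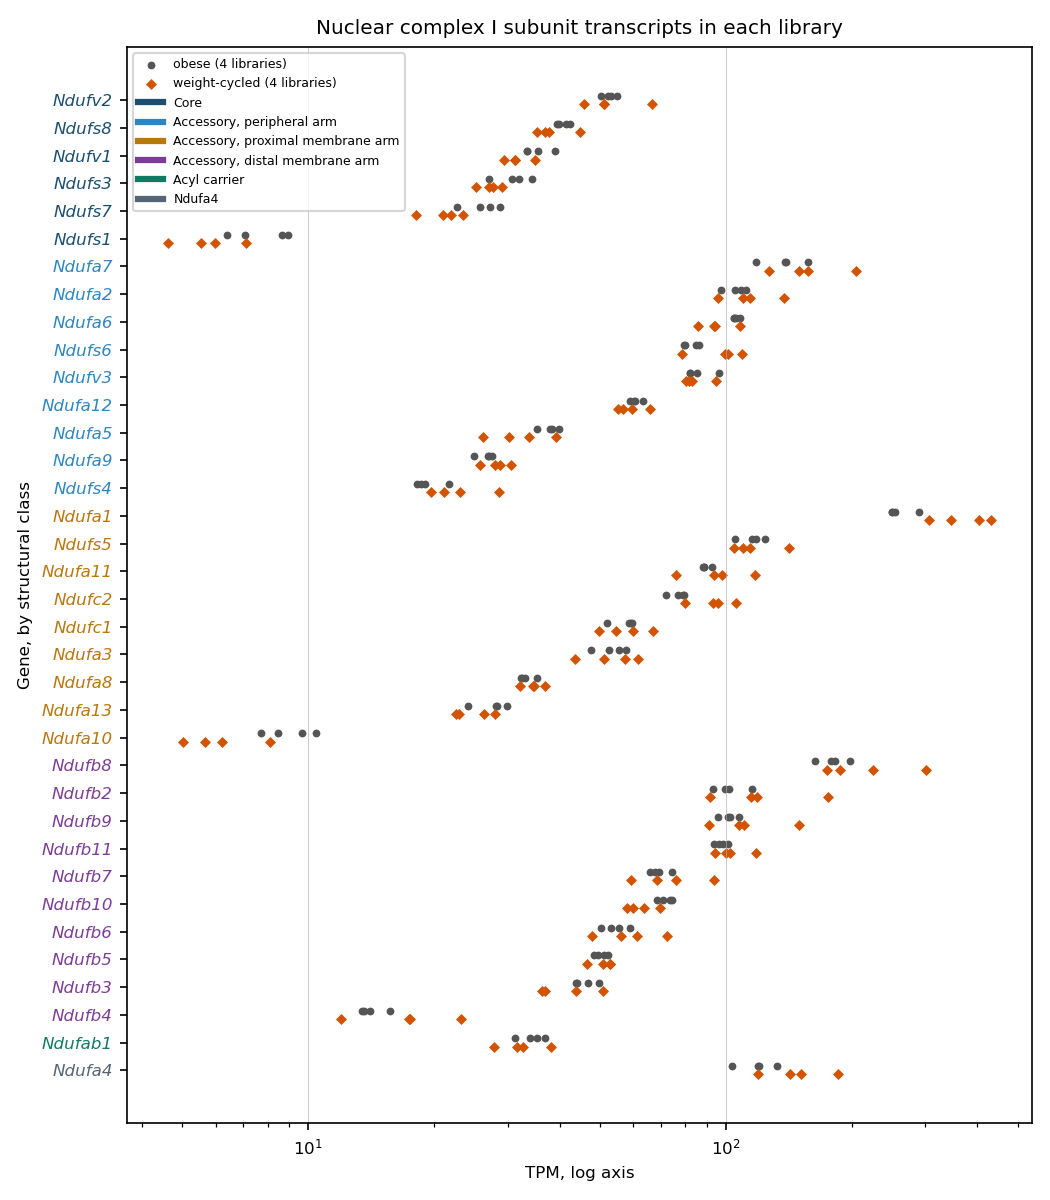
TPM of 36 of the 37 transcripts on a log axis, 1 point per library (grey circles obese, orange diamonds weight-cycled, 4 libraries each), with gene names coloured by structural class. Ndufa1 is the highest at a mean of 316 TPM and Ndufs1 the lowest at 6.79, and the groups are apart for Ndufa1 and Ndufc2.

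Between the groups, 1 subunit transcript rose in weight-cycled islets, 1 fell and 35 did not pass the test. Ndufa1 was the one higher and Ndufa10 the one lower (limma on log2(TPM + 1), Benjamini-Hochberg adjusted p under 0.05 over 8127 genes whose mean TPM was 1 or more, two-sided). All 37 passed that filter on low values. Among all genes tested, 1.21% were called higher and 23.9% lower. At an unadjusted p under 0.05 by limma there were 3 subunits higher and 4 lower. Of all 8127 genes tested, 3993 passed that unadjusted threshold in either direction. The median difference of the 37 was 0.02 on the log2 scale, weight-cycled minus obese, and 22 were above 0. Over all genes tested the median was -0.26 and 14.5% were above 0, so 34 of the 37 subunits lay above the median of all genes. How much of that contrast is a matter of library scaling cannot be read from TPM, which sums to a fixed total in each library. After median-of-ratios scaling, which moved the median of all genes to -0.01, 35 of the 37 were above 0 (48.4% of all genes tested), their median was 0.34 and none was called, with 21 higher and 1 lower at an unadjusted p under 0.05 by limma. Calls over all genes were then 1.24% higher and 0.566% lower, and 2469 of the 8127 genes had an unadjusted p under 0.05 by limma. Of the 15 subunits below 0 on TPM, 13 were above 0 after this scaling, among them Ndufs7, at -0.29 on TPM. The direction of most subunits below 0 therefore depends on the scaling. Values below are on TPM as deposited unless another scale is named.

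**Figure D2:**
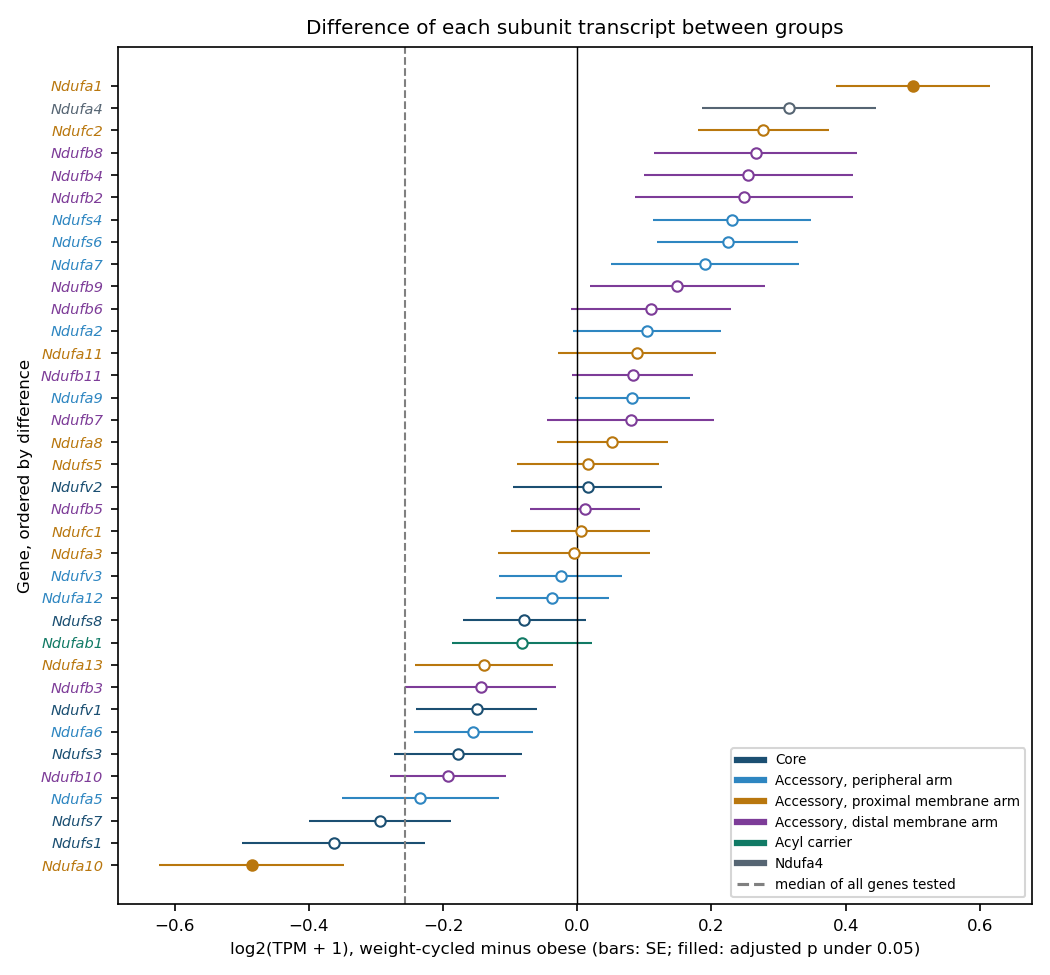
Difference of 36 of the 37 transcripts, weight-cycled minus obese on the log2(TPM + 1) scale, with the SE (4 libraries per group), filled where the adjusted p was under 0.05 and coloured by structural class. Ndufa1 at 0.50 and Ndufa10 at -0.49 are the filled points, and the dashed line is the median of all genes tested at -0.26.

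In obese replicates 1 to 4, Ndufa1 stood at 253.8, 289.3, 249.9 and 249.6 TPM, and in weight-cycled replicates 1 to 4 at 307.02, 403.5, 345.3 and 430.7 TPM. The groups did not overlap, and weight-cycled replicate 1 was the nearest to the obese libraries. Means were 261 ± 19.2 TPM (SD, n = 4) and 372 ± 55.9 TPM (SD, n = 4), a rise of 0.50 on the log2 scale (SE 0.115, limma adjusted p = 0.0322), which is 0.76 above the median difference of all genes. The rise had the same direction under every alternative run, from 0.43 to 0.996. It passed the threshold after the correction for transcript length, which takes out the trend found in each library, but not after median-of-ratios scaling (0.83, limma adjusted p = 0.0502). Leaving out any one of obese replicates 1, 2 and 3 or weight-cycled replicates 2, 3 and 4 took the adjusted p to between 0.0633 and 0.108.

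Ndufa10, an accessory subunit of the membrane arm with the fold of a nucleoside kinase, went the other way. It is encoded on chromosome 1 (92439010 to 92473860, minus strand) with 355 codons. Its TPM was 10.4, 9.66, 8.48 and 7.73 in obese replicates 1 to 4 and 8.09, 5.01, 6.22 and 5.67 in weight-cycled replicates 1 to 4. Weight-cycled replicate 1 lay inside the obese range, and the other 3 lay below it. From 9.08 ± 1.21 to 6.25 ± 1.32 TPM (SD, n = 4 each) the transcript fell by 0.49 on the log2 scale (SE 0.138, limma adjusted p = 0.0367), which is 0.23 further down than the median of all genes. After median-of-ratios scaling the difference was -0.19 (limma adjusted p = 0.131), and after length correction it was -0.33 (limma adjusted p = 0.0819). The same 6 single libraries that ended the call of Ndufa1 ended this one when left out, with differences from -0.51 to -0.40.

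The core subunits of the peripheral arm carry the flavin and the chain of iron-sulphur clusters, and 0 of the 7 were called. Their median difference was -0.15, with 2 above 0 and 5 below. The lowest was Ndufs1, the largest core subunit (chromosome 1, 63143596 to 63176833, minus strand). Its TPM was 8.94, 8.67, 7.04 and 6.39 in the obese and 7.12, 4.62, 5.54 and 5.99 in the weight-cycled libraries in replicate order. The highest weight-cycled library overlapped the obese range, and the difference was -0.36 (SE 0.137, limma adjusted p = 0.0628). Ndufs7, which holds the last cluster before ubiquinone (chromosome 10, 80249121 to 80256794, plus strand), had 28.7, 27.2, 25.8 and 22.7 TPM in the obese libraries and 21.02, 18.1, 21.9 and 23.4 in the weight-cycled ones. Only weight-cycled replicate 4 reached into the obese range, and the difference was -0.29 (SE 0.105, limma adjusted p = 0.0554). Without obese replicate 4, as without weight-cycled replicate 1, both Ndufs1 and Ndufs7 were called lower (limma adjusted p = 0.04995 and 0.0472, and 0.00939 and 0.0389). In the same 2 runs 1672 of 8121 and 4390 of 8064 genes tested were called lower, so such calls were common among all genes.

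Other core subunits were closer to 0. Ndufs3, a core subunit of the matrix arm, differed by -0.18 (limma adjusted p = 0.148), and Ndufv1, the subunit that binds NADH and the flavin, by -0.15 (limma adjusted p = 0.191). For Ndufs8, which carries a pair of iron-sulphur clusters, the difference was -0.08 (limma adjusted p = 0.490). The partner of Ndufv1, Ndufv2, differed by 0.02 (limma adjusted p = 0.915), and its sign turned without obese replicate 4 or weight-cycled replicate 4. After median-of-ratios scaling 6 of the 7 core subunits were above 0, the exception being Ndufs1, and 0 were called.

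Accessory subunits of the peripheral arm numbered 9, with a median difference of 0.08, 5 above 0 and 0 called. Their extremes were Ndufs4, whose loss is known to cause a Leigh-like encephalopathy in mice, and Ndufa5. Ndufs4 had 18.2, 21.7, 19.05 and 18.7 TPM in the obese and 19.6, 21.1, 23.1 and 28.6 in the weight-cycled libraries. The groups overlapped in the lower weight-cycled values, and the difference was 0.23 (SE 0.118, limma adjusted p = 0.132). Ndufa5 had 38.4, 37.9, 39.9 and 35.2 TPM in the obese and 26.1, 30.2, 33.8 and 39.3 in the weight-cycled libraries. Of the weight-cycled libraries 3 lay below every obese one, while replicate 4 lay inside the obese range, and the difference was -0.23 (SE 0.117, limma adjusted p = 0.126). Ndufa7, the most abundant of this class, differed by 0.19 (limma adjusted p = 0.277).

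In the membrane arm, 9 accessory subunits sit near the joint with the peripheral arm, and they include both called genes. Their median difference was 0.02, and 6 were above 0. Besides Ndufa1, the groups did not overlap for Ndufc2, a membrane-spanning subunit encoded on chromosome 7 (97400003 to 97407802, plus strand). This gene was singled out after its values were seen. Ndufc2 had 79.15, 78.97, 76.7 and 71.8 TPM in the obese and 79.7, 95.6, 93.2 and 105.6 in the weight-cycled libraries, so weight-cycled replicate 1 cleared the highest obese library by under 1 TPM. Means were 76.7 ± 3.41 and 93.5 ± 10.7 TPM (SD, n = 4 each), and the difference of 0.28 (SE 0.097) missed the threshold on TPM (limma adjusted p = 0.0526). It passed after correction for transcript length, where 2 subunits (Ndufa1 and Ndufc2) were called higher and 0 lower, beside 1.78% and 1.53% of all genes tested. Groups that did not overlap were found for 2 subunits higher and 0 lower, against 1.30% and 21.1% of all genes tested.

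The distal membrane arm gave 10 matched subunits, with a median difference of 0.10, 8 above 0 and 0 called. Ndufb8, often used as a protein marker of assembled complex I, is encoded on chromosome 19 (44548572 to 44555440, minus strand). It had 163.04, 182.8, 198.1 and 178.9 TPM in the obese and 174.6, 224.9, 187.1 and 301.5 in the weight-cycled libraries, with weight-cycled replicates 1 and 3 inside the obese range and replicates 2 and 4 above it. Its difference of 0.27 did not pass (SE 0.151, limma adjusted p = 0.171). Ndufb10 lay at the other end of the class, with 74.5, 70.5, 73.4 and 68.35 TPM in the obese and 59.8, 57.8, 63.6 and 69.6 in the weight-cycled libraries. Only weight-cycled replicate 4 reached the obese range, and the difference was -0.19 (SE 0.087, limma adjusted p = 0.0968). After median-of-ratios scaling all 10 were above 0 and Ndufb10 stood at 0.13.

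Ndufab1, the mitochondrial acyl carrier protein found in both arms and in fatty acid synthesis, differed by -0.08 (limma adjusted p = 0.529). Ndufa4 had 119.6, 132.8, 120.1 and 103.3 TPM in the obese and 119.4, 142.04, 151.3 and 185.2 in the weight-cycled libraries. The weight-cycled replicate 1 value fell within the obese range and the other 3 lay above it, and the difference of 0.32 did not pass (SE 0.130, limma adjusted p = 0.0777). Leaving Ndufa4 out, 21 of the 36 remaining genes were above 0, with a median of 0.02. By arm, 14 of 19 membrane-arm subunits and 7 of 16 peripheral-arm subunits were above 0, with medians of 0.08 and -0.03. The difference between the arms was not tested.

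For Ndufb4 the level rests on how reads were divided between the gene and the copy shown above. The shared stretch made up 19.1% of the 31-base words of the Ndufb4 transcripts, and Ndufb4c was given 6.19 to 7.76 times the TPM of Ndufb4 in the 8 libraries. Ndufb4 itself had 14.02, 13.6, 15.7 and 13.5 TPM in the obese and 12.01, 17.5, 17.5 and 23.2 in the weight-cycled libraries, a difference of 0.26 (SE 0.156, limma adjusted p = 0.198). Ndufb4c had 88.7, 105.4, 110.03 and 98.5 TPM in the obese and 89.4, 108.2, 116.5 and 163.1 in the weight-cycled libraries. Gene and copy had their highest value in weight-cycled replicate 4. Summed, they came to 115 ± 9.85 TPM over the obese libraries and 137 ± 35.7 TPM over the weight-cycled ones (SD, n = 4 each), a log2 difference of 0.22, and the groups overlapped. Which share of the copy's TPM comes from reads of Ndufb4 was not tested. In all, 8 subunits had over 10% of their 31-base words in another annotated gene, but for the others of these the top partner gene was at 1.28 TPM or less.

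**Figure D3:**
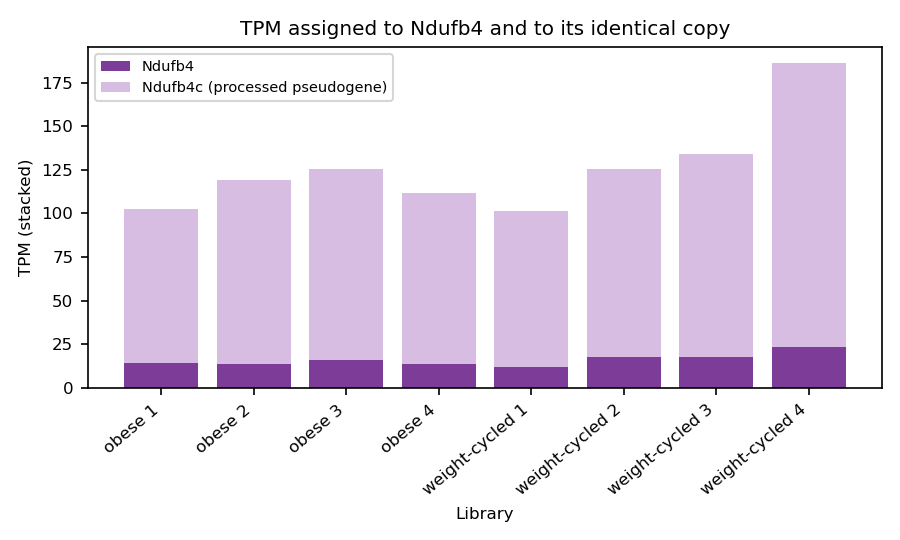
TPM assigned in each library to Ndufb4 (dark) and stacked on it to its identical processed pseudogene Ndufb4c (light). The copy takes 6.19 to 7.76 times the level of the gene in every library, and the sum is highest in weight-cycled replicate 4.

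These transcripts spread more widely among the weight-cycled libraries than among the obese ones. The median coefficient of variation of the 37 genes was 6.81% over the obese libraries and 14.7% over the weight-cycled ones, and it was larger in the weight-cycled group for 34 of the 37, against 79.3% of all genes tested. Within the weight-cycled group, replicate 4 was highest for 34 subunits and replicate 1 lowest for 30. Over all 8 libraries, replicate 4 was highest for 27 and replicate 1 lowest for 21. The subunits together took 2542, 2701, 2698 and 2534 TPM in the obese and 2444, 2858, 2813 and 3485 TPM in the weight-cycled libraries, so weight-cycled replicate 1 lay below every obese library and the other 3 weight-cycled libraries above every one. As a share of the TPM that was not insulin these sums were 1.13%, 1.17%, 1.18% and 1.17% in the obese and 1.10%, 1.32%, 1.33% and 1.42% in the weight-cycled libraries.

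**Figure D4:**
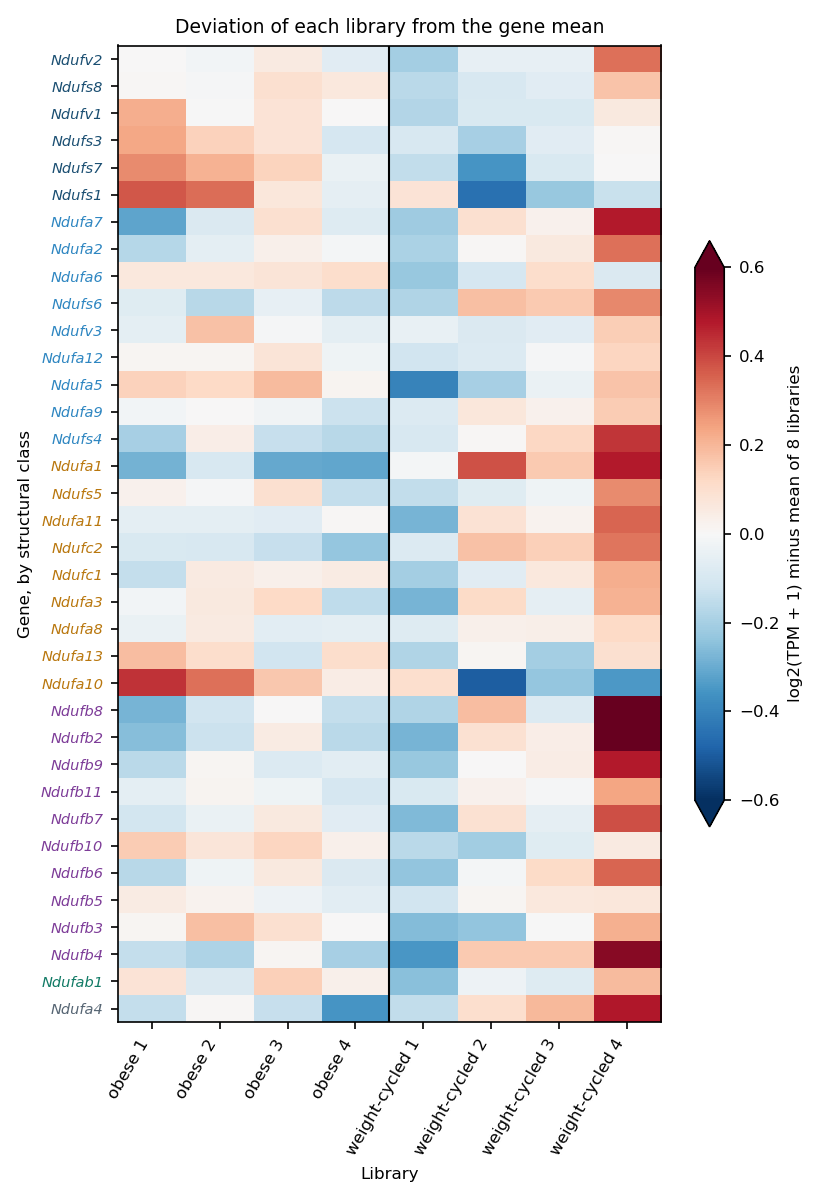
Deviation of each library (columns, 4 obese and 4 weight-cycled) from the mean of its gene (rows, 36 of the 37 genes by structural class), on the log2(TPM + 1) scale, red above and blue below. Of all 37 genes, weight-cycled replicate 4 is above the mean for 34 and weight-cycled replicate 1 for 2.

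Weight-cycled replicate 1 moved with more than these genes. It had the highest acinar marker sum, and across all genes tested its deviations from the gene mean were higher for longer transcripts (Spearman's rho 0.345, across genes). The obese libraries had the same sign (0.183 to 0.375), and the other weight-cycled libraries the opposite one (-0.399 to -0.283). Without it, limma called 9 subunits higher (among them Ndufa1, Ndufa4, Ndufb4, Ndufb8, Ndufc2 and Ndufs4) and 3 lower (Ndufa10, Ndufs1 and Ndufs7), beside 3.35% higher and 54.4% lower of the genes then tested. With median-of-ratios scaling and without that library, a combination chosen after seeing the data, 31 subunits were higher and Ndufa10 was lower, while 1609 genes in all were higher and 1444 lower. In that scaling no subunit was called when any other library was left out. The part of this library's make-up in the result was not tested beyond these counts.

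Subunits with short coding sequences stood higher in the comparison than those with long ones. Coding length, taken from the longest annotated coding sequence, ran from 210 to 2181 bases with a median of 447, against 1179 over 8022 tested genes, and 33 of the 37 were shorter than that. The 12 shortest (210 to 372 bases) had a median difference of 0.15 with 9 above 0. The 13 in the middle (384 to 537 bases) had 0.08 with 8 above 0, and the 12 longest (558 to 2181 bases) had -0.05 with 5 above 0. Across the 37 genes, which share the same 8 libraries, Spearman's rho between the difference and coding length was -0.40, and across all genes it was -0.44. With transcript length, the median over annotated protein-coding transcripts, it was -0.28 and -0.37. That median can fall below the coding length, as for Ndufs1 at 651 bases. Among the 37 the difference was also related to mean TPM (0.595), which itself was lower for longer coding sequences (-0.476). Spearman's rho between the difference and coding length was -0.09 among the subunits once each library's trend with coding length had been removed. A value nearer to 0 is what removing that trend is built to give, so it is no test of the part of length. After this correction 29 of the 37 were above 0 with a median of 0.16.

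**Figure D5:**
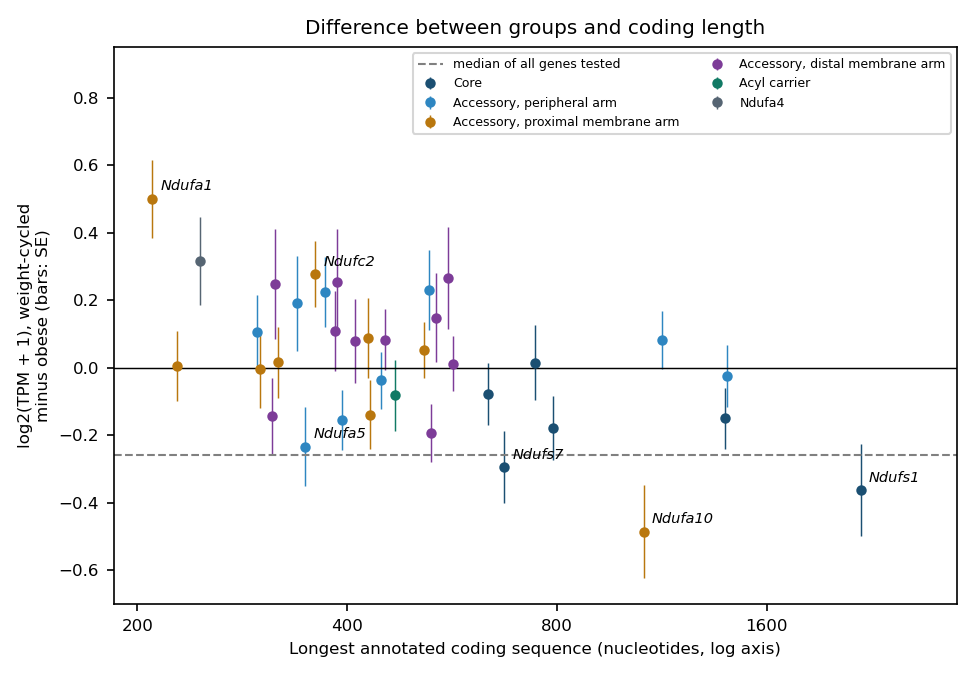
Difference of 36 of the 37 transcripts, weight-cycled minus obese on the log2(TPM + 1) scale with the SE, against the longest annotated coding sequence in bases (log axis), coloured by structural class. Ndufa1 (210 bases) is at the upper left and Ndufs1 (2181 bases) at the lower right, and Spearman's rho across all 37 genes is -0.40.

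Complex I also needs subunits from the mitochondrial genome and assembly factors that are not part of the finished enzyme. Of the 7 mitochondrially encoded subunits, which form the core of the membrane arm, 0 were called. All 7 were below 0 with a median of -0.58, and after median-of-ratios scaling 6 of 7 were, with a median of -0.30. The most abundant of them, mt-Nd3, differed least, by -0.16 (SE 0.129, limma adjusted p = 0.324), and its groups overlapped. Its means were 6274 ± 701 TPM over the obese and 5609 ± 512 TPM over the weight-cycled libraries (SD, n = 4 each). The most negative was mt-Nd4l, with 245.8, 343.6, 279.4 and 238.3 TPM in the obese and 379.2, 95.2, 68.2 and 144.3 in the weight-cycled libraries (difference -0.99, SE 0.397, limma adjusted p = 0.0729). Weight-cycled replicate 1 was the highest of all and the other weight-cycled libraries the lowest, and without replicate 1 limma called 6 of the 7 lower, beside 54.4% of all genes then tested. Of 19 assembly factors listed, 17 were tested, 0 were higher and 1 was lower, beside 1.21% and 23.9% of all genes tested. Ndufaf3, which acts early in the assembly of the peripheral arm, had 6.93, 7.18, 6.64 and 6.68 TPM in the obese and 5.70, 4.87, 5.90 and 5.12 in the weight-cycled libraries. The groups did not overlap, as for 21.1% of all genes tested in the lower direction. Ndufaf3 fell by 0.30 on the log2 scale (limma adjusted p = 0.0439), but after median-of-ratios scaling the difference was -0.01.

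Some transcription factors from a list made for respiratory chain genes fell on TPM. Of 10 factors and coactivators listed, 7 were tested, 4 fell, 0 rose and 3 (Gabpb1, Tfam and Esrra) did not pass, with a median of -0.41. Among all genes tested 23.9% were called lower and the median was -0.26. Nrf1 (nuclear respiratory factor 1) fell by 0.41 (limma adjusted p = 0.0449), Gabpa, the DNA-binding subunit of GA-binding protein, by 0.46 (limma adjusted p = 0.0367), Yy1, a zinc-finger factor, by 0.53 (limma adjusted p = 0.0345) and Nfe2l1, a stress-responsive leucine-zipper factor, by 0.69 (limma adjusted p = 0.0366). Nfe2l1 is not the same gene as Nrf1 and was counted by its place in the list alone. Nrf1, Gabpa and Yy1 had group means between 1.01 and 2.76 TPM. After median-of-ratios scaling 0 were called and 4 of 7 were below 0, and after length correction 0 were called. The subunits of complexes II to V gave 1 higher and 4 lower of 39, with a median of 0.03 and 22 above 0, beside 1 higher, 1 lower, 0.02 and 22 of 37 for the complex I genes. Those called were Uqcrh of complex III, higher by 0.45, and Sdha of complex II, Cox5a of complex IV and Atp5b and Atp5d of ATP synthase, lower, with differences of -0.60, -0.27, -0.28 and -0.30. After median-of-ratios scaling 38 of the 39 were above 0 and 0 were called.

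Letter matches to the sites of these factors were counted in the RefSeq windows (GRCm38.p6) from 250 bases before to 50 after each gene's start, on both strands, with 12 strings chosen after the data were seen. Some strings contain others, so that their matches overlap. Windows were present for 33 of the 37 genes and for 27025 genes in all. The 27025 were not limited to genes expressed in these islets. Whether the shares below differ from those of other expressed genes was therefore not tested. The NRF1 motif was in 7 of the 33 (21.2%), against 5.19% of all windows, and in 3 other spellings in 9.1% to 27.3%, against 2.77% to 7.0%. The YY1 string AAGATGGCG was in 5 (15.2%), against 1.64%, and the ATGGCG within it in 33.3%, against 10.2%. The ETS string CCGGAAG was in 12.1% against 9.93%, and the longer ACCGGAAG in 9.1% against 2.6%. The CREB string TGACGTCA was in 9.1% against 2.03%, and the SP1 string GGGCGG in 45.5% against 38.2%. The estrogen-related receptor string TCAAGGTCA was in none, against 0.47%, and TATAAA was in 12.1% against 15.7%. The stretches before the start of the lower and of a nearly level gene are shown, cut where annotated exons begin, with SP1 matches (on the other strand) in capitals in the first and the NRF1 match in capitals in the second. They lie at chr1:92473861-92474008 and chr4:123718203-123718436, both on the minus strand.
Ndufa10: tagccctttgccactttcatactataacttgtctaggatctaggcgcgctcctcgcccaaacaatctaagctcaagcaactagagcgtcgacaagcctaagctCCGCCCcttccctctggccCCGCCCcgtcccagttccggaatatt
Ndufs5: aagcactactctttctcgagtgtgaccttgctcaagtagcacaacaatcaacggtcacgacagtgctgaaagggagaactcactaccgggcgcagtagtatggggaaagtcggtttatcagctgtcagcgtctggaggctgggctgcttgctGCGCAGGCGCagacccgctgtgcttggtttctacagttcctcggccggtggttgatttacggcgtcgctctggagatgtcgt
Ndufs5, an accessory subunit of the membrane arm near the joint, differed by 0.02 between the groups (limma adjusted p = 0.910), with means of 116 ± 7.94 and 117.5 ± 16.3 TPM (SD, n = 4 each). A match describes letters in the window and says nothing of binding in these islets.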

How the data were processed

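Islet RNA-seq of 4 obese and 4 weight-cycled libraries was used. The authors deposited gene-level TPM from Salmon 1.5.2 and mm10, per the submitters' processing notes. Annotation, the summing of transcripts to genes and strand setting were not given in the sources used here, and 12 of the 37 genes overlap a protein-coding gene on the other strand. Columns summed to 999930 to 999949 over 35596 genes, of which 35527 had a symbol in the name table. Depth is unknown from TPM.

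Of the core, 1 subunit is in the counts and is not reported by itself. The subunits and lists were chosen with earlier results of these data known. Genes averaging 1 TPM or more were tested with limma 3.58.1 (R 4.3.3, eBayes with trend) on log2(TPM + 1), two-sided, without covariates, with Benjamini-Hochberg adjustment at 0.05 over all genes tested; the scale understates changes of low genes. The fit was tested on simulated data. The alternatives were other pseudocounts (0.1 and 5), other filters (none, and a mean TPM of 5), median-of-ratios scaling, rescaling without Ins1 and Ins2, subtraction of a loess trend (span 0.5) on transcript length in each library, the replicate number as a block, and each library left out. Correction for coding length, and scaling together with leaving out libraries, were added after seeing the data. Transcript length was the median over a gene's annotated protein-coding transcripts, short ones included. For Ndufs1 it was 651 bases, below the coding length of 2181, so the length correction treated this gene as short.

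Named with statistics were called subunits, the core, Ndufab1, Ndufa4, the extremes of level and of difference in each structural class, and called genes of other lists (at most 4 a list). Outside this rule, Ndufc2 is given for its groups that did not overlap, and Ndufs5 as a nearly level gene with an NRF1 match. The extremes of the mitochondrial list, mt-Nd3 and mt-Nd4l, and the beta-cell markers that were not called are also given. Coordinates, coding sequences and shared 31-base words came from GENCODE M21 (GRCm38, which is mm10), and promoter windows from RefSeq, with Python 3.11.15, pandas 2.3.3 and scipy 1.17.1.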

Additional observations from a re-analysis of the deposited data

Results flagged for a closer look

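In 4 of the 74 groups of 4 libraries examined (37 subunits in each group), the highest or the lowest library stood apart from the other 3. Chance alone flags about 1 in 20 groups, which is 3.7 of 74. Ndufa1 was at 289.26 TPM in obese replicate 2, against 249.64 to 253.82 in the other obese libraries, and this library is still below every weight-cycled one. Ndufa11, an accessory membrane-arm subunit, was at 92.755 TPM in obese replicate 4, against 87.941 to 88.659. Ndufc1, a small membrane-arm subunit, was at 51.807 TPM in obese replicate 1, against 58.471 to 59.53. Ndufv3, an accessory subunit next to the flavin-binding pair, reached 94.833 TPM in weight-cycled replicate 4, while the others of that group had 80.431 to 82.748.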

How the results depend on the processing

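Calls rested on the filter, on the scaling and on single libraries. The count of subunits higher went from 1 to 0 with no filter and with median-of-ratios scaling and to 2 with either length correction, and over the left-out libraries it ran from 0 to 9 on TPM and to 31 after scaling. The count lower went from 1 to 0 with no filter, with scaling and with either length correction, and ran from 0 to 3 over left-out libraries. With the replicate block 2 were lower, Ndufs1 being added. Whether the numbers pair libraries is not in the labels. Same-numbered libraries correlated in their deviations at 0.21, -0.28, -0.05 and 0.23, and differently numbered ones at -0.34 to 0.31. So few correlations, with such a spread, cannot decide it. Over all genes, those higher were 0 with no filter, 149 with the replicate block, 243 with the coding-length correction and 0 to 270.0 over left-out libraries, and those lower 0 with no filter, 1001 at a mean TPM of 5, 46 after scaling, 881 without insulin, 124 and 220 with the transcript-length and coding-length corrections and 0 to 4390 over left-out libraries. After scaling, leaving out obese replicates 1 to 4 gave 0, 11, 0 and 0 genes higher and 0, 2, 0 and 0 lower, and leaving out weight-cycled replicates 1 to 4 gave 1609, 10, 58 and 0 higher and 1444, 3, 23 and 0 lower. With no filter, 3 subunits were higher and 4 lower at an unadjusted p under 0.05 by limma, beside 5686 of the 19482 genes then tested. The median difference of the subunits was 0.34 after scaling, 0.16 after length correction and 0.16 after coding-length correction.

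Median-of-ratios scaling took 13 subunits from below 0 to above it, none of them called, and without weight-cycled replicate 1 as well, 9 subunits below 0 on TPM were called higher. Among the named subunits, the values above 0 after scaling were 0.089 for Ndufa5, 0.24 for Ndufab1, 0.13 for Ndufb10, 0.14 for Ndufs3, 0.024 for Ndufs7, 0.24 for Ndufs8 and 0.17 for Ndufv1. After length correction they were 0.058 for Ndufab1, 0.062 for Ndufs8 and 0.039 for Ndufv1, and after coding-length correction 0.021 for Ndufab1, 0.0041 for Ndufs3, 0.073 for Ndufs8 and 0.10 for Ndufv1. Ndufv2 ran from -0.092 to 0.085 over left-out libraries. The cause of these changes was not tested.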
